A study of Saccharomyces cerevisiae with 14 samples.

Results

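Aminoacyl-tRNA synthetases were examined in *Saccharomyces cerevisiae* as the 34 open reading frames, of 6387 on the array, that encode the cytosolic enzymes (21) or the mitochondrial enzymes (13). The members were listed by systematic name, with earlier results of these data already known, and all 34 were found. Cultures of strain NRRL Y-12632 in synthetic complete medium received 5-hydroxymethylfurfural (HMF), an inhibitor formed when biomass is pretreated, at a final 30 mM after 6 h of growth. HMF cultures were sampled at 10, 30, 60 and 120 min of the lag phase, and control cultures of the same strain, which were grown alike without HMF, at the same times. There were 2 biological replicates for each treatment at 10, 30 and 60 min but a single array for each at 120 min, which gives 7 HMF and 7 control arrays. On every array the test RNA carried Cy3 and was set against untreated 0 min RNA carrying Cy5. All cultures were thus of 1 strain at 1 HMF dose, and nothing was measured on tRNA charging or on protein.

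Aminoacyl-tRNA synthetases attach each amino acid to its tRNA, and charged tRNA is what the ribosome uses to read codons. Yeast mitochondria translate their own small set of messages and use a separate set of synthetases, which are encoded in the nucleus and imported. For a few amino acids 1 gene gives both forms, by way of different start sites. Uncharged tRNA activates the kinase Gcn2p, which favors translation of the activator Gcn4p, and some cytosolic synthetase genes are known Gcn4p targets.

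Each value below is a log2 ratio to 0 min from which the median of its array was subtracted, called the relative level here, and a gene is said to read that level. Values given as a pair are those of replicate 1 and replicate 2. Before this centring the array medians ran from -0.32 to 0.56 on HMF arrays and from -0.18 to 1.29 on control arrays. A relative level says how a transcript stood against the bulk of transcripts on the same array, so a change shared by all transcripts is not in it. In bulk RNA, fewer cells that carry a transcript and less of it per cell cannot be told apart. A member was called where the difference, HMF minus control, had an adjusted p of at most 0.05 in limma's moderated test over all 6387 genes. Errors of differences are moderated standard errors (SE).

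Against the bulk of transcripts, the cytosolic synthetase transcripts were lower with HMF. Averaged over the 4 times, the difference was below 0 for all 21 cytosolic genes, against 49.9% of all genes, and 11 of them were called lower and 0 higher. In this comparison 6.25% of all genes were called lower and 5.09% higher. The median difference of the 21 was -0.49, a 1.40-fold lower level, within a range of -0.87 to -0.17, while the median over all genes was 0.00. The 11 called genes carried the synthetases for alanine (*ALA1*), isoleucine (*ILS1*), valine (*VAS1*), asparagine (*DED81*), aspartate (*DPS1*), glycine (*GRS1*), lysine (*KRS1*), serine (*SES1*), tyrosine (*TYS1*), tryptophan (*WRS1*) and proline (*YHR020W*). The difference was below 0 at each of the 4 times in 18 of the 21, against 17.8% of all genes.

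These calls depended on the centring. With the values as deposited, 0 of the 21 were called, while 1.46% of all genes were called lower. The median difference of the 21 was then -0.68 and that of all genes -0.19. Centring shifts every gene of an array alike, so the offset of the cytosolic genes from the rest is the same on both scales by construction. With quantile normalization between arrays 5 of the 21 were called, *ILS1*, *VAS1*, *DPS1*, *KRS1* and *YHR020W*, against 4.4% of all genes called lower. Whichever of the 12 replicated arrays was left out, *ILS1*, *VAS1*, *DED81*, *DPS1*, *GRS1*, *KRS1* and *YHR020W* were still called. The others, *ALA1*, *SES1*, *TYS1* and *WRS1*, were lost in most of these fits. Their mean differences then ran from -0.64 to -0.50, -0.48 to -0.41, -0.50 to -0.44 and -0.53 to -0.45.

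**Figure D1:**
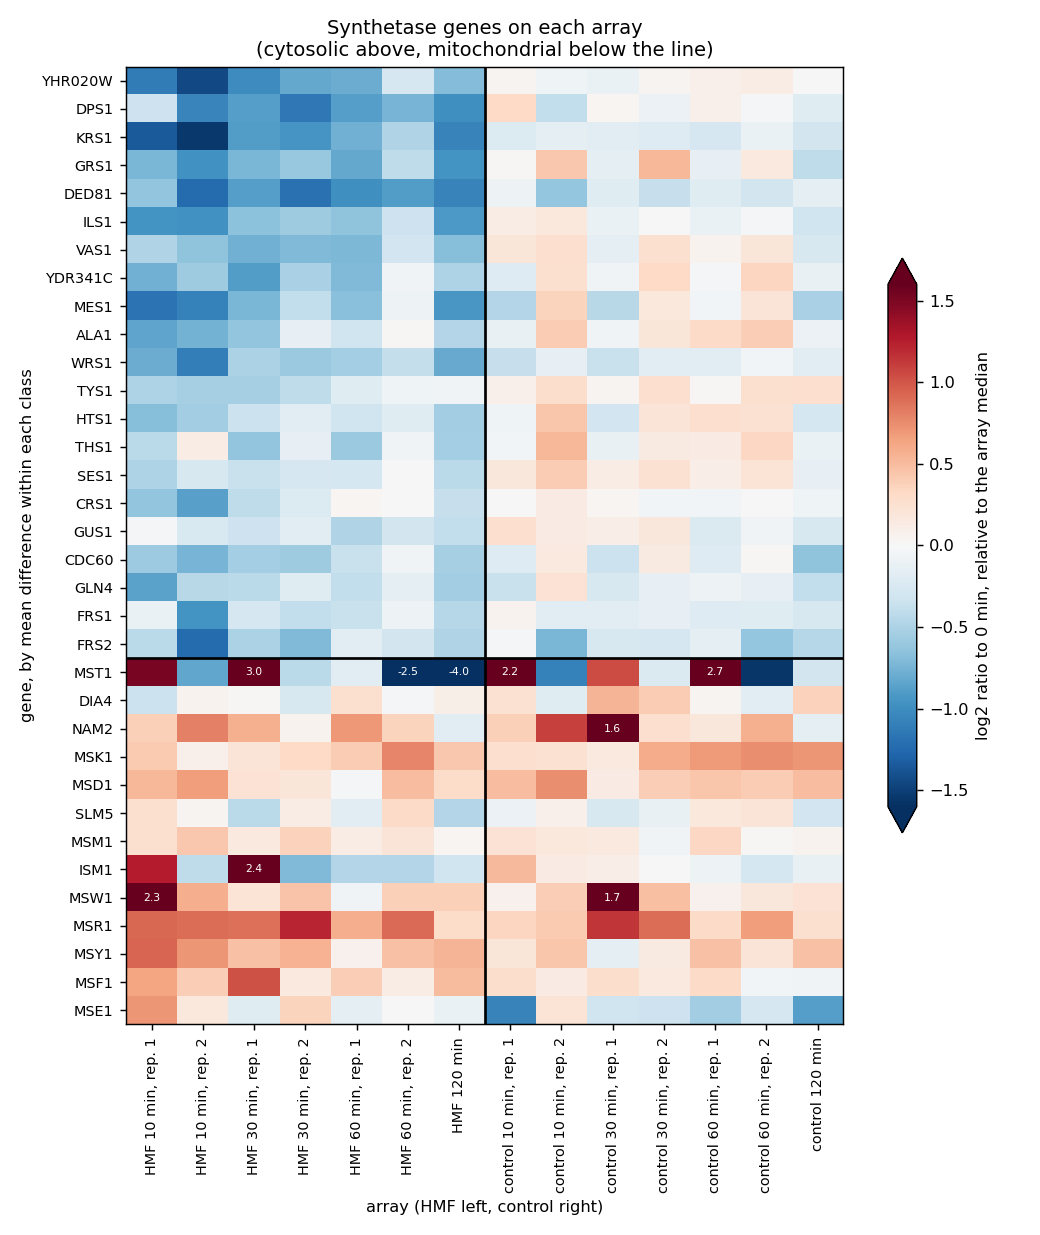
Relative level (log2 ratio to 0 min minus the array median, color scale) of the 34 synthetase genes in rows, on the 7 HMF arrays at left and the 7 control arrays at right, by time and replicate. The cytosolic rows are below 0 on nearly all HMF arrays, with 20 or 21 of 21 genes below 0 per array, while the mitochondrial rows mostly lie around or above 0 in both treatments, except that *MSE1* is below 0 on most control arrays and *MST1* swings between replicates.

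The lowest mean difference was that of *YHR020W*, the cytosolic prolyl-tRNA synthetase. *YHR020W* read -1.12 and -1.44 with HMF against 0.05 and -0.06 in the control at 10 min, and -1.01 and -0.82 with HMF against -0.11 and 0.04 in the control at 30 min. At 60 min *YHR020W* read -0.79 and -0.27 with HMF against 0.08 and 0.12 in the control, and on the single 120 min arrays -0.69 with HMF against 0.00 in the control. The control arrays stayed close to the array median throughout, and no HMF array reached them. The mean difference was -0.87 (SE 0.13, adjusted p = 0.0043), a 1.83-fold lower level.

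*KRS1* (YDR037W), the cytosolic lysyl-tRNA synthetase, had the smallest p of the family. *KRS1* read -1.34 and -1.54 with HMF against -0.22 and -0.14 in the control at 10 min, and -0.89 and -0.95 with HMF against -0.17 and -0.21 in the control at 30 min. At 60 min *KRS1* read -0.76 and -0.48 with HMF against -0.27 and -0.11 in the control, and on the single 120 min arrays -1.07 with HMF against -0.30 in the control. Replicates lay close together in both treatments, and the HMF and control arrays did not overlap. The 4 differences averaged -0.80 (SE 0.11, adjusted p = 0.0028).

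*DPS1* (YLL018C), the cytosolic aspartyl-tRNA synthetase, showed more spread between replicates at 10 min. *DPS1* read -0.33 and -1.05 with HMF against 0.32 and -0.39 in the control at 10 min, and -0.88 and -1.14 with HMF against 0.03 and -0.09 in the control at 30 min. At 60 min *DPS1* read -0.88 and -0.74 with HMF against 0.08 and -0.03 in the control, and on the single 120 min arrays -0.99 with HMF against -0.20 in the control. The second control replicate at 10 min was below the first HMF replicate of that time, and the remaining arrays were separate. Within the same-numbered pairs of that time HMF minus control was -0.65 and -0.66. The difference averaged -0.82 (SE 0.17, adjusted p = 0.017).

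In 7 of the 21 cytosolic genes, *ILS1*, *VAS1*, *DED81*, *KRS1*, *TYS1*, *WRS1* and *YHR020W*, every HMF array lay under every control array. The same held for 3.84% of all genes and for 0 of the 13 mitochondrial synthetases. *ILS1* (YBL076C), the isoleucyl-tRNA synthetase, lay between -0.97 and -0.33 with HMF and between -0.32 and 0.17 in the control. *DED81* (YHR019C), the asparaginyl-tRNA synthetase, lay between -1.24 and -0.63 with HMF and between -0.62 and -0.08 in the control, where it was thus already below the array median. *DED81* and *YHR020W* are next to each other in the R64 gene table, the only neighbors among the 34 genes, which otherwise lie scattered over 12 chromosomes in all. The mean difference of *DED81* was -0.73 (SE 0.15) and that of *ILS1* -0.67 (SE 0.11), both called. *WRS1* for tryptophan (-0.49, SE 0.12), *TYS1* for tyrosine (-0.47, SE 0.11) and *SES1* for serine (-0.44, SE 0.11) were the called genes of smaller difference, with adjusted p of 0.028, 0.028 and 0.039.

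A set of 4 cytosolic genes, *ALA1*, *GRS1*, *HTS1* and *VAS1*, was taken as also supplying the mitochondrial form of their enzyme. *GRS1* (YBR121C) encodes glycyl-tRNA synthetase. *GRS1* read -0.74 and -0.97 with HMF against 0.01 and 0.44 in the control at 10 min, and -0.73 and -0.60 with HMF against -0.16 and 0.53 in the control at 30 min. At 60 min *GRS1* read -0.81 and -0.41 with HMF against -0.13 and 0.16 in the control, and on the single 120 min arrays -0.96 with HMF against -0.41 in the control. The groups were apart at every time, and the 120 min control met the highest HMF array. On average the gap was -0.78, which was called (SE 0.16, adjusted p = 0.017). *GRS1* has a close paralog, *GRS2*, and probe specificity between them was not examined, so both are uncertain.

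*VAS1* (YGR094W) encodes valyl-tRNA synthetase. *VAS1* read -0.48 and -0.64 with HMF against 0.19 and 0.27 in the control at 10 min, and -0.76 and -0.70 with HMF against -0.14 and 0.26 in the control at 30 min. At 60 min *VAS1* read -0.72 and -0.30 with HMF against 0.06 and 0.19 in the control, and on the single 120 min arrays -0.68 with HMF against -0.25 in the control. The 120 min control array was the lowest of its treatment and still above the highest HMF array. The gene was called in the mean (-0.66, SE 0.13, adjusted p = 0.011).

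*ALA1* (YOR335C) encodes alanyl-tRNA synthetase. *ALA1* read -0.84 and -0.76 with HMF against -0.12 and 0.41 in the control at 10 min, and -0.63 and -0.13 with HMF against -0.05 and 0.20 in the control at 30 min. At 60 min *ALA1* read -0.32 and 0.02 with HMF against 0.31 and 0.39 in the control, and on the single 120 min arrays -0.47 with HMF against -0.09 in the control. It was called in the mean (-0.57, SE 0.15, adjusted p = 0.041), although the second HMF replicate at 60 min lay among the control arrays.

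*HTS1* (YPR033C) encodes histidyl-tRNA synthetase. *HTS1* read -0.68 and -0.56 with HMF against -0.07 and 0.44 in the control at 10 min, and -0.34 and -0.18 with HMF against -0.30 and 0.20 in the control at 30 min. At 60 min *HTS1* read -0.32 and -0.19 with HMF against 0.27 and 0.24 in the control, and on the single 120 min arrays -0.56 with HMF against -0.29 in the control. The groups overlapped at 30 min only, with HMF lower in all 6 same-numbered pairs, and the mean difference of -0.45 (SE 0.14, adjusted p = 0.078) missed the limit. The median difference of the 4 genes was -0.62 with 3 called, and that of the other 17 cytosolic genes -0.47 with 8 called. Whether these medians differ was not tested. The 34 genes held no separate mitochondrial member for cysteine, and *CRS1* was counted among the other 17.

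The highest difference in the cytosolic class belonged to phenylalanyl-tRNA synthetase, the only cytosolic enzyme of the family built from separate alpha and beta subunits, here *FRS2* (YFL022C) and *FRS1* (YLR060W). *FRS2* read -0.43 and -1.23 with HMF against -0.02 and -0.73 in the control at 10 min, and -0.51 and -0.71 with HMF against -0.25 and -0.27 in the control at 30 min. At 60 min *FRS2* read -0.18 and -0.29 with HMF against -0.15 and -0.61 in the control, and on the single 120 min arrays -0.48 with HMF against -0.45 in the control. The second replicate at 10 min was low in both treatments, and the groups were apart at 30 min only before they nearly met at 120 min. *FRS1* read -0.11 and -0.95 with HMF against 0.05 and -0.18 in the control at 10 min, and -0.26 and -0.39 with HMF against -0.16 and -0.13 in the control at 30 min. At 60 min *FRS1* read -0.35 and -0.08 with HMF against -0.20 and -0.20 in the control, and on the single 120 min arrays -0.46 with HMF against -0.26 in the control. Here too the groups overlapped at 10 and 60 min. Between same-numbered arrays HMF was lower in 5 of 6 pairs for each subunit, all but the second pair at 60 min. Neither subunit passed the test, with mean differences of -0.17 (SE 0.19, adjusted p = 0.64) for *FRS2* and -0.21 (SE 0.16, adjusted p = 0.46) for *FRS1*. Without 1 array these ran from -0.27 to -0.07 and from -0.32 to -0.11. With quantile normalization the *FRS2* difference turned to 0.022.

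The remaining 7 cytosolic genes that were not called spanned mean differences of -0.61 to -0.26. Among them *YDR341C*, the arginyl-tRNA synthetase, missed narrowly (-0.61, SE 0.17, adjusted p = 0.054), as did *CRS1* for cysteine (-0.35, SE 0.11, adjusted p = 0.074). *MES1*, the methionyl-tRNA synthetase, had -0.59 (SE 0.20, adjusted p = 0.093), with wider replicate scatter than any other cytosolic member. *THS1* for threonine had -0.45, *GUS1* for glutamate -0.28, *CDC60* for leucine -0.27 and *GLN4* for glutamine -0.26, with adjusted p between 0.16 and 0.32. Same-numbered replicates varied together, although the labels do not say what they share. With replicate number as a block in limma, *YDR341C* (adjusted p = 0.0047), *MES1* (0.015), *THS1* (0.020), *HTS1* (0.030) and *CRS1* (0.047) were called as well. That made 16 of 21, where 9.08% of all genes were called lower. With a separate block at each time 15 were called, *CRS1* not among them, against 9.05% of all genes.

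Members of both structural classes of synthetase were among the genes called. The catalytic domain of class I enzymes is a Rossmann fold, whereas class II enzymes use an antiparallel sheet. Of 10 cytosolic class I genes 4 were called, with a median difference of -0.48, and of 11 class II genes 7 were called, with a median of -0.57. The 3 genes with the lowest differences, *YHR020W*, *DPS1* and *KRS1*, are all class II, and so are *FRS1* and *FRS2* at the other end.

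**Figure D2:**
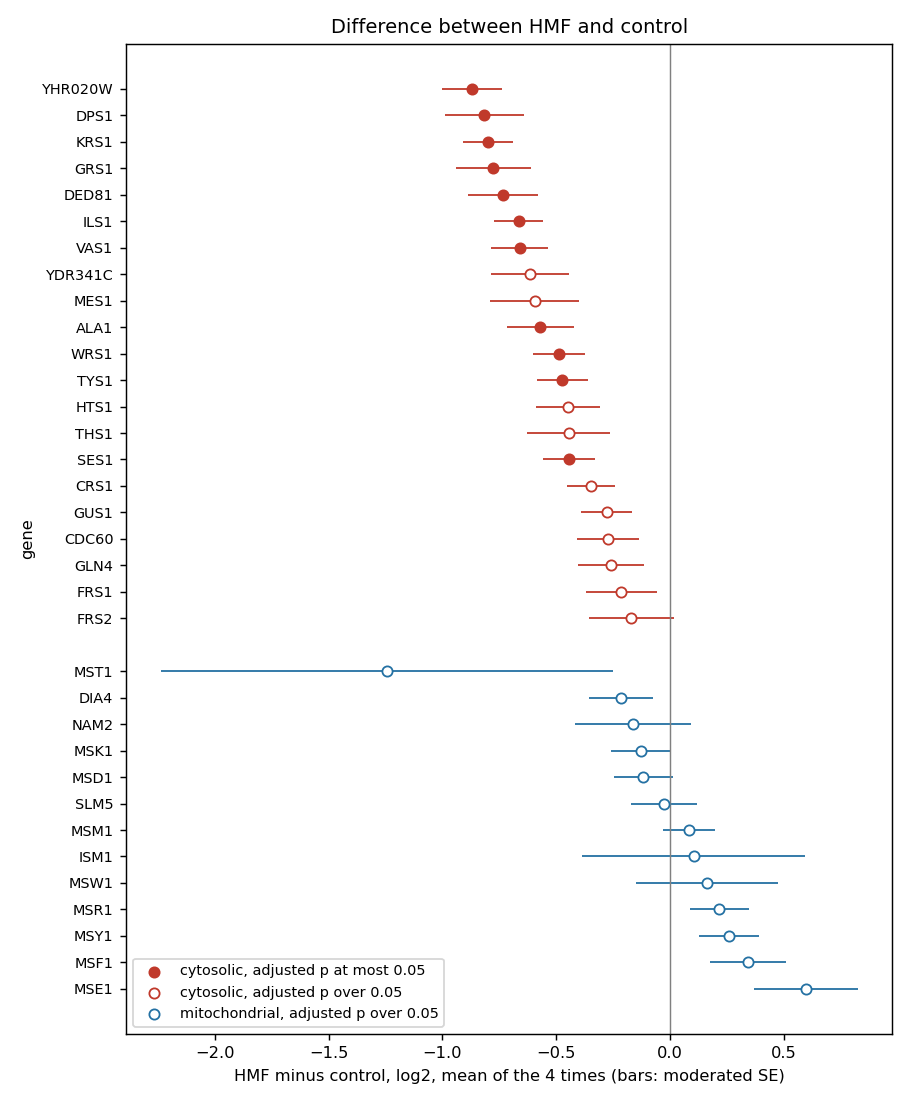
Mean over 4 times of the difference in relative level, HMF minus control (log2, horizontal axis), for each of the 34 genes with its moderated SE as a bar. Filled points passed the limma test at an adjusted p of 0.05 and are all cytosolic, from -0.87 for *YHR020W* to -0.44 for *SES1*, and the mitochondrial points straddle 0 apart from *MST1* with its wide error.

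By time, the cytosolic difference was lowest at the first sampling. At 10 min all 21 genes were below 0, against 3170 of 6387 genes, with a median of -0.69 (1.62-fold lower) and a range of -1.28 to -0.34. Of the 21, *KRS1*, *YHR020W*, *ILS1*, *GRS1* and *MES1* were at least 2-fold lower, as were 443 of 6387 genes. At this time 3 genes were called, *KRS1* (-1.26, SE 0.20, adjusted p = 0.024), *ILS1* (-1.10, SE 0.19, adjusted p = 0.028) and *YHR020W* (-1.28, SE 0.24, adjusted p = 0.034), where 1.5% of all genes were called lower. With replicate number as a block the count at 10 min was 9, adding *ALA1*, *CRS1*, *GRS1*, *MES1*, *SES1* and *TYS1*, against 4.84% of all genes. As deposited it was 0 (0.579% of all genes), and likewise with quantile normalization (0.0626%). It was also 0 in each of the 4 fits that left out 1 of the 10 min arrays.

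At 30 min all 21 differences were below 0 again (median -0.45), at 60 min 19 (median -0.44) and at 120 min 20 (median -0.38). Over all genes the difference was below 0 in 3309, 3107 and 3090 of 6387. None of the 21 was called by limma at these 3 times, where 1.75%, 0.407% and 0.0626% of all genes were called lower. At an unadjusted p of 0.05, limma gave 10, 4 and 2 cytosolic genes lower, while 8.5%, 5.68% and 3.87% of all genes were so. The two-factor test without moderation called *KRS1* at 30 min, where it called 2% of all genes lower, and no cytosolic gene at 60 or 120 min. The HMF arrays were below the control arrays of the same time in 17, 18, 17 and 20 of the 21 genes at 10, 30, 60 and 120 min. For all genes these shares were 22%, 22.1%, 23.6% and 48.4%, the last from 1 array in each group.

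The difference at 10 and 30 min minus that at 60 and 120 min was below 0 in 18 of the 21 cytosolic genes, with a median of -0.28. Over all genes it was below 0 in 3575 of 6387, with a median of -0.06. The test of this contrast gave no call for any of the 34 members, nor for any gene (0%). At an unadjusted p of 0.05 limma gave 0 members and 275 of 6387 genes. The interaction of treatment and time likewise called 0 members and 0% of all genes, with 0 members at an unadjusted p of 0.05. The two-factor test also called none of either. At an unadjusted p of 0.05 it gave 4 cytosolic genes for the early and late contrast (4.67% of all genes) and 3 for the interaction (5.12%).

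Array by array, the median relative level of the 21 cytosolic genes was -0.63 and -0.87 with HMF against -0.02 and 0.17 in the control at 10 min, and -0.63 and -0.52 with HMF against -0.14 and 0.14 in the control at 30 min. It was -0.55 and -0.19 with HMF against -0.05 and 0.01 in the control at 60 min, and the 120 min arrays gave -0.56 with HMF against -0.25 in the control. The second HMF replicate at 60 min was the highest of its treatment and the 120 min array the lowest of the control, and these single arrays overlapped.

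**Figure D3:**
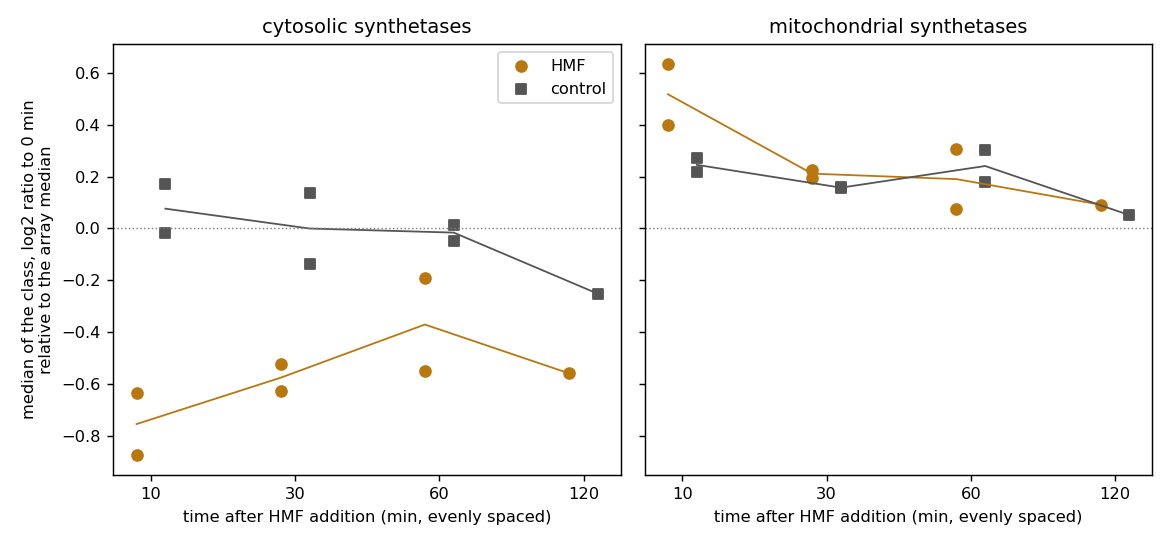
Median relative level (log2, vertical axis) of the 21 cytosolic genes and of the 13 mitochondrial genes on each array, against time in minutes, HMF and control marked apart, with lines through the means of the arrays. The cytosolic medians with HMF lie between -0.87 and -0.19, and the control between -0.25 and 0.17. The mitochondrial medians are above 0 in both treatments.

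The mitochondrial synthetases did not show a common shift. Their mean differences were below 0 in 6 and above 0 in 7 of 13 genes, with a median of 0.08 and a range of -1.24 to 0.59. None was called by limma in the mean or at any single time, where 0.642%, 0.814%, 0.564% and 0.141% of all genes were called higher at 10, 30, 60 and 120 min. At an unadjusted p of 0.05 there was 1 in limma's mean, *MSE1*, and 0 in the two-factor test, with 1, 1, 0 and 0 in limma at the single times. Of all genes 25.1% did so in limma's mean and 17.7%, 15.5%, 11.8% and 7.55% at the single times, in either direction. Of the 13 genes, 12 had a 95% interval that held 0, and in 8 the interval lay above -0.49, the cytosolic median. The array medians of the 13 genes ran from 0.07 to 0.63 with HMF and from 0.05 to 0.30 in the control.

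*MSE1* (YOL033W), the mitochondrial glutamyl-tRNA synthetase, had the highest difference of the class. *MSE1* read 0.70 and 0.17 with HMF against -1.07 and 0.22 in the control at 10 min, and -0.19 and 0.36 with HMF against -0.32 and -0.33 in the control at 30 min. At 60 min *MSE1* read -0.15 and -0.01 with HMF against -0.55 and -0.27 in the control, and on the single 120 min arrays -0.11 with HMF against -0.88 in the control. The groups were apart except at 10 min, where the second control replicate was above the second HMF replicate. Its mean over the 4 times was 0.59 (SE 0.23, adjusted p = 0.14). Without that second control replicate it was 0.75 (adjusted p = 0.026), the only setting tried in which a mitochondrial member was called.

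The lowest 3 of the class were *MST1*, *DIA4* and *NAM2*. *MST1* (YKL194C) encodes the mitochondrial threonyl-tRNA synthetase. *MST1* read 1.52 and -0.84 with HMF against 2.24 and -1.08 in the control at 10 min, and 2.96 and -0.43 with HMF against 1.04 and -0.24 in the control at 30 min. At 60 min *MST1* read -0.18 and -2.55 with HMF against 2.68 and -1.56 in the control, and on the single 120 min arrays -3.97 with HMF against -0.29 in the control. Replicate 1 was far above replicate 2 in all 6 groups with replicates, and the 120 min arrays had none to compare. The mean difference of *MST1*, -1.24 (SE 0.99, adjusted p = 0.50), could thus not be told from 0.

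*DIA4* (YHR011W) encodes a probable mitochondrial seryl-tRNA synthetase. *DIA4* read -0.35 and 0.06 with HMF against 0.25 and -0.19 in the control at 10 min, and 0.02 and -0.26 with HMF against 0.55 and 0.41 in the control at 30 min. At 60 min *DIA4* read 0.26 and -0.02 with HMF against 0.04 and -0.18 in the control, and on the single 120 min arrays 0.09 with HMF against 0.37 in the control. The HMF arrays were below the control at 30 and 120 min only, and its mean was -0.22 (SE 0.14, adjusted p = 0.40).

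*NAM2* (YLR382C) encodes the mitochondrial leucyl-tRNA synthetase, which also takes part in splicing of mitochondrial introns. *NAM2* read 0.39 and 0.80 with HMF against 0.39 and 1.09 in the control at 10 min, and 0.57 and 0.06 with HMF against 1.63 and 0.27 in the control at 30 min. At 60 min *NAM2* read 0.69 and 0.36 with HMF against 0.18 and 0.57 in the control, and on the single 120 min arrays -0.18 with HMF against -0.15 in the control. Both treatments were mostly above the array median and overlapped (mean difference -0.16, SE 0.26, adjusted p = 0.76). Without the first control replicate at 30 min the difference was 0.0061.

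The other mitochondrial members that were not called lay between *MSK1* for lysine (-0.13) and *MSF1* for phenylalanine (0.34, SE 0.17, adjusted p = 0.26). Between them were *MSD1* for aspartate (-0.12), *SLM5* for asparagine (-0.03), *MSM1* for methionine (0.08), *ISM1* for isoleucine (0.10), *MSW1* for tryptophan (0.16), *MSR1* for arginine (0.22) and *MSY1* for tyrosine (0.26). The direction of *MSM1*, *ISM1*, *MSW1*, *MSR1* and *SLM5* changed with the scaling or with 1 time or array left out.

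The spread between replicates was of similar size in both classes for most members. The replicate SD had a median of 0.22 over the cytosolic genes and 0.23 over the mitochondrial genes, against 0.34 over all genes. In the mitochondrial class *MST1* (2.11), *ISM1* for isoleucine (1.02), *MSW1* for tryptophan (0.64), *NAM2* (0.50) and *MSE1* (0.44) stood above the highest cytosolic value of 0.36. *ISM1* read 1.26 and 2.39 on the first HMF replicates at 10 and 30 min, against -0.40 and -0.70 on the second. *MSW1* read 2.30 on the first HMF replicate at 10 min and 1.70 on the first control replicate at 30 min, with its other arrays between -0.05 and 0.58. For *MST1*, *ISM1* and *MSW1* the arrays set only wide bounds on the difference.

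For 13 amino acids the 34 genes held both a cytosolic and a separate mitochondrial synthetase. Proline was not paired, as *AIM10*, which encodes a probable mitochondrial prolyl-tRNA synthetase, is not one of the 34. The mean difference of *AIM10* was 0.23 (SE 0.12, adjusted p = 0.29), against -0.87 for *YHR020W*. By time the *AIM10* difference was 0.08, 0.10 and -0.02 at 10, 30 and 60 min, and 0.76 on the single 120 min arrays. The cytosolic difference was below the mitochondrial one in 12 of the 13, with a median gap of -0.68. The exception was threonine (0.80), which rests on *MST1*. By time the gap was below 0 in 13, 10, 12 and 11 of 13 pairs at 10, 30, 60 and 120 min, with medians of -1.19, -0.78, -0.39 and -0.42. Among the 13 pairs the gap was widest for glutamate, *GUS1* against *MSE1* (-0.87), where most of it came from the mitochondrial side. For lysine, *KRS1* against *MSK1* (-0.67), it came from the cytosolic side.

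*MSK1* read 0.42 and 0.08 with HMF against 0.27 and 0.24 in the control at 10 min, and 0.20 and 0.32 with HMF against 0.15 and 0.59 in the control at 30 min. At 60 min *MSK1* read 0.41 and 0.79 with HMF against 0.68 and 0.75 in the control, and on the single 120 min arrays 0.43 with HMF against 0.71 in the control. *MSK1* was above the array median on every array of both treatments, whereas *KRS1* was below it on every array. In 2 of the 13 pairs, lysine and glutamate, the within-array gap between the partners was lower on all 7 HMF arrays than on any control array. In every other pair of the 13 the HMF and control arrays overlapped. Among single genes 3.84% had all HMF arrays below all control arrays, and the share over pairs of other genes was not computed. The narrowest gaps below 0 were those of leucine (-0.11) and serine (-0.23). The gaps were not tested.

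**Figure D4:**
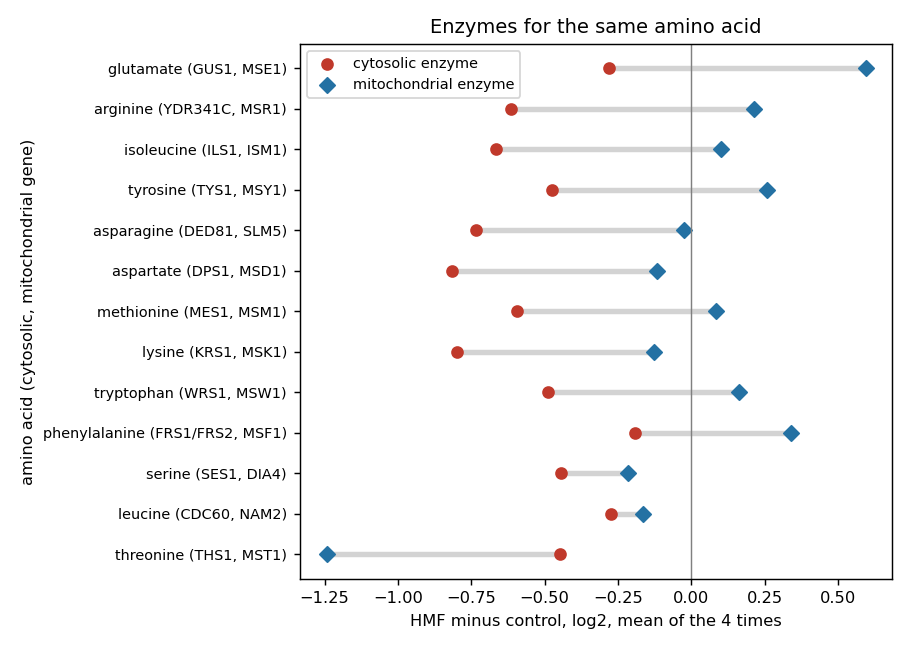
Mean difference in relative level, HMF minus control (log2, horizontal axis), of the cytosolic and the mitochondrial synthetase for each of 13 amino acids, joined by a line. For phenylalanine the cytosolic point is the mean of *FRS1* and *FRS2*. The cytosolic point lies left of its partner in 12 of 13 rows, all but threonine.

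Between the classes, the cytosolic median minus the mitochondrial median on the same array was -1.27 to -0.50 on the 7 HMF arrays and -0.35 to -0.02 on the 7 control arrays. These ranges did not overlap, and subtracting within an array removes the centring, though not other effects of scaling. The median gap between partners was -0.68 after centring and -0.38 with quantile normalization, for which this gap of class medians was not computed. On the deposited scale the cytosolic median ran from -1.19 to 0.21 with HMF and from -0.17 to 1.46 in the control, and those ranges overlapped. At 10 min this median was -0.07 and -1.19 with HMF against 0.27 and 1.46 in the control, and the 30 min arrays gave -0.56 and -0.51 with HMF against -0.02 and 0.78 in the control. At 60 min it was -0.36 and 0.21 with HMF against 0.23 and -0.17 in the control, while the single 120 min arrays gave -0.32 with HMF against -0.01 in the control. The second 60 min replicate was the high one with HMF and the low one in the control.

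Other genes of tRNA charging and its sensing were taken as a list of 19. Their mean differences were below 0 in 10 and above 0 in 9, with a median of 0.00 and a range of -0.49 to 0.35, and limma called 0 of 19 in the mean and at each time. At an unadjusted p of 0.05 limma gave 0 in the mean, where 25.1% of all genes passed, and 0, 1, 0 and 1 at 10, 30, 60 and 120 min, where 17.7%, 15.5%, 11.8% and 7.55% passed. The two-factor test called 0 in the mean. *ARC1* encodes a cofactor that binds the *MES1* and *GUS1* products in a complex. *ARC1* read -0.02 and -0.49 with HMF against 0.08 and -0.03 in the control at 10 min, and -0.09 and -0.59 with HMF against 0.17 and -0.19 in the control at 30 min. At 60 min *ARC1* read -0.28 and -0.19 with HMF against -0.36 and -0.11 in the control, and on the single 120 min arrays -0.36 with HMF against -0.05 in the control. The treatments overlapped at each of the replicated times, with HMF lower in 5 of 6 same-numbered pairs. On average *ARC1* differed by -0.23 (SE 0.15, adjusted p = 0.39), and none of the 3 genes of that complex was called in the fit without a block.

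*GCN4*, the transcriptional activator of amino acid biosynthesis genes, is controlled largely at translation, so its transcript is not a measure of its activity. *GCN4* read 0.18 and -0.70 with HMF against 0.55 and -0.31 in the control at 10 min, and -0.20 and -0.97 with HMF against 0.00 and -0.06 in the control at 30 min. At 60 min *GCN4* read -0.44 and -0.14 with HMF against 0.11 and 0.07 in the control, and on the single 120 min arrays 0.34 with HMF against -0.04 in the control. The groups were apart at 30 and 60 min, overlapped at 10 min and had the opposite order at 120 min. Between same-numbered arrays HMF was lower in all 6 pairs, with differences of -0.37 and -0.39 at 10 min, where both second replicates were low. The mean difference was -0.23 (SE 0.22, adjusted p = 0.58), and that of *GCN2*, the kinase that senses uncharged tRNA, was 0.23 (SE 0.21, adjusted p = 0.57). Without 1 array these ran from -0.34 to -0.12 for *GCN4* and from 0.10 to 0.35 for *GCN2*.

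The elongation factors that carry charged tRNA to the ribosome were also not called. *TEF1* is one of the genes for cytosolic eEF1A. *TEF1* read -0.47 and -0.36 with HMF against -0.10 and -0.75 in the control at 10 min, and -0.80 and -0.62 with HMF against -0.30 and -0.57 in the control at 30 min. At 60 min *TEF1* read -0.44 and -0.44 with HMF against -0.39 and -0.25 in the control, and on the single 120 min arrays -0.42 with HMF against -0.53 in the control. It was below the array median on all 14 arrays (mean difference -0.07, SE 0.14, but 0.13 with quantile normalization), and since *TEF1* and *TEF2* are nearly identical their probes may not tell them apart. *TUF1* encodes the mitochondrial counterpart. *TUF1* read 0.51 and 0.84 with HMF against 0.35 and 0.49 in the control at 10 min, and 0.24 and 0.10 with HMF against 0.12 and 0.39 in the control at 30 min. At 60 min *TUF1* read 0.05 and 0.58 with HMF against 0.55 and 0.54 in the control, and on the single 120 min arrays 0.22 with HMF against 0.18 in the control. It was above the array median on every array, and its mean difference was 0.00 (SE 0.14).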

How the data were processed

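RNA of 14 samples, 7 with HMF and 7 control, was measured on 2-color oligonucleotide arrays. The sources describe 2 replicated experiments per condition sampled over time, so samples of different times can come from 1 culture, and the fit takes the arrays as independent. The authors subtracted background, examined spots by hand, normalized each slide to the spike-in gene CAB, and deposited 1 log2 ratio of Cy3 test to Cy5 reference for each of 6387 open reading frames, with no missing value. How duplicate spots were combined was not given in the sources used here. A spike-in does not fix the level of all genes, so each array was centred on its median here, which hides any change shared by all genes. The number of arrays limits the precision. Signal intensities were not used.

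A mean for each of 8 groups of treatment and time was fitted with limma 3.58.1 in R 4.3.3 (lmFit, eBayes), with 6 residual and 2.53 prior degrees of freedom. Contrasts were HMF minus control at each time, their mean, early minus late, and the interaction, with Benjamini-Hochberg adjustment over all genes. Single 120 min arrays were taken to vary like the other groups.

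The members and lists were chosen with earlier results of these data known. Values on every array are given for the 3 lowest and the 1 highest of each class and the genes taken as serving both compartments. They are also given for *FRS1*, *FRS2*, *GCN4*, *ARC1*, *TEF1* and *TUF1*. *MSK1* was added after its values were seen, as were the values of *ILS1*, *DED81*, *ISM1* and *MSW1*. Symbols came from the RefSeq table of assembly R64, which gave a row for 5840 open reading frames and all 34 members. Sequences were not used here.

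The labels give replicate numbers without saying what is shared. The differences between replicate 1 and replicate 2 of HMF and of control correlated across genes at 0.31, 0.28 and 0.17 at 10, 30 and 60 min. All were above 0.1, so the numbers were taken to pair the arrays. The main fit did not use this pairing, and only the fits with a replicate block did. Alternatives were the values as deposited, quantile normalization, replicate number as a block over all times or at each time, robust eBayes, the methods' two-factor test without moderation, an added 2-fold criterion, no 120 min arrays, and each of the 12 replicated arrays left out.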

Additional observations from a re-analysis of the deposited data

How the results depend on the processing

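The number of cytosolic synthetases called lower in the mean, 11 of 21 after centring, was 0 as deposited, 5 with quantile normalization and 4 with a 2-fold criterion on the group means added (4.84% of all genes). Without 1 array it ranged from 7 to 14. It was 7 without the first HMF replicate at 30 or at 60 min, the second control replicate at 10 or at 30 min, or either control replicate at 60 min. In each of the 12 fits *ILS1*, *VAS1*, *DED81*, *DPS1*, *GRS1*, *KRS1* and *YHR020W* were among those called, while *ALA1*, *SES1*, *TYS1* and *WRS1* were lost in most. The two-factor test also called 11, losing *ALA1* and adding *CRS1*, and robust eBayes changed no member's call.

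At 10 min the count of 3 was 0 as deposited and with quantile normalization, 5 in the two-factor test (1.88% of all genes lower), 9 with the replicate block, and 0 to 3 without 1 array. It was 0 without either array of HMF at 10 min, of the control at 10 min or of the control at 60 min, and 1 without either control array at 30 min. At 30 min 1 gene was called with each replicate block, *YDR341C* with the block over all times (3.23% of all genes lower) and *DPS1* with the block at each time (2.4%), and 1 in the two-factor test (2%). The replicate blocks changed no other call beyond those given with the results.

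As deposited the median difference was -0.68 for the cytosolic and -0.11 for the mitochondrial genes. Without 1 array these medians ran from -0.53 to -0.46 and from -0.053 to 0.12, the last range crossing 0 without the first HMF replicate at 10 min. The median gap between partners was -0.38 with quantile normalization and -0.73 to -0.64 without 1 array. Leaving out 1 array gave 0 to 1 mitochondrial calls (*MSE1*) and 0 to 1 calls in the list of 19 (*FMT1*, -0.85, adjusted p = 0.032, without the first control replicate at 60 min). The cause of these shifts was not tested.

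Members not called changed sign as follows. As deposited *MSM1* was -0.11, *MSW1* -0.031 and *ISM1* -0.090. With quantile normalization *FRS2* was 0.022 and *MSR1* -0.0078. Without 1 array *MSW1* ran from -0.053 to 0.38 and was below 0 without the first HMF replicate at 10 min, *ISM1* from -0.28 to 0.49 and below 0 without the first HMF replicate at 10 or at 30 min. *NAM2* ran from -0.34 to 0.0061, above 0 without the first control replicate at 30 min. *SLM5* ran from -0.095 to 0.044, above 0 without the second HMF replicate at 10 min or the first at 30 or at 60 min, and was 0.017 without the 120 min arrays. At 120 min there is no replicate, and signal over background was not examined.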

Other observations

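In *MST1*, replicate 1 was above replicate 2 in all 6 groups with replicates, by 1.27 to 4.24 on the log2 scale. It was the only 1 of 6387 genes with a gap of over 1 in that direction in all 6 groups, and 3 genes had such a gap in the opposite direction. A replicate SD as high as its 2.11 was reached by 8 genes (0.125%), *MST1* included. This pattern was chosen after the values were seen, and its cause was not tested.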
